A study of Mus musculus with 6 samples.

Results

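The interleukin-1 (IL-1) family of cytokines, with its receptors and inhibitors, was examined in RAW264.7, an established line of mouse macrophage-like cells, across 6 RNA sequencing libraries. The 10 genes were chosen by symbol (GENCODE M21), out of 55401 genes in the deposited count table: the agonists Il1a, Il1b, Il18 and Il33, the antagonist Il1rn, the binding protein Il18bp, the receptor chains Il1r1, Il1rl1 and Il1rap, and the decoy receptor Il1r2. All 10 had a row in the table. Cells of the wild-type line received either phosphate-buffered saline (PBS, 3 libraries) or 6.25 µg/ml of molybdenum disulfide, MoS2 (3 libraries), a layered metal sulfide. The sources used here give neither the length of the exposure nor whether replicates were separate cultures. The p-values therefore measure the spread among these 6 libraries, all of 1 cell line, and that spread may be technical. The series concerns MoS2 and the microenvironment of tumours, and the comparison asks how transcripts of macrophages given MoS2 differ from those given PBS.

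IL-1α and IL-1β bind the receptor Il1r1, which recruits the accessory chain Il1rap and signals through MyD88 and IRAK kinases to NF-kB. The antagonist Il1rn occupies Il1r1 without recruiting Il1rap, Il1r2 binds ligand without signalling, and Il18bp captures IL-18 in solution. IL-33 acts through Il1rl1 (ST2), also with Il1rap. IL-1β and IL-18 are made as precursors that caspase-1 cleaves in an inflammasome, and macrophages are among their main sources.

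Total counts per library ran from 15767618 to 18412762. Levels are given as CPM, counts scaled to library depth, with TMM factors that were 1.31 in the PBS libraries and 0.743 to 0.783 in the MoS2 libraries, and levels of different genes are compared only per kilobase of gene length (RPKM). TMM assumes that most genes do not change. Scaling by library totals alone moved the median gene by -0.77 on the log2 scale, and upper-quartile factors moved it by -0.13. Of 10 macrophage markers 9 were well above 0 and Mertk had at most 1 count in any library. With MoS2, 2 were called higher and 4 lower, beside 38.3% and 42.4% of all 12972 genes tested. Cd68 went from 614 to 1304 CPM and Itgam from 44.2 to 123 CPM, while Lyz2 went from 3624 to 1976 CPM and Csf1r from 1909 to 513 CPM. Other markers moved little: Adgre1 went from 36.9 to 38.6 CPM, Cd14 from 896 to 844 CPM, and Ptprc had a log2 fold change of 0.027. The summed level of the list was 7657 to 7837 CPM with PBS and 5196 to 5450 CPM with MoS2. In bulk RNA, fewer cells of a kind and less RNA per cell cannot be told apart.

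Transcripts of the IL-1 agonists and their antagonist were higher in MoS2-treated cells, and the 2 expressed receptor chains were lower. Il1rn, the most abundant member per length in both groups, rose 11.7-fold, while Il1a and Il1b rose from near 0 to single-digit CPM and Il18 rose 2.12-fold. Il1rl1 fell 2.34-fold and Il1rap 3.23-fold. Of the 10 genes, 7 passed the low-count filter. By edgeR's quasi-likelihood test at an adjusted p under 0.05, 4 were higher and 2 were lower with MoS2. Over all 12972 genes tested, 80.7% were called, 38.3% as higher and 42.4% as lower, so the number of members called is near the background. Of the 7 tested members, the same 4 and 2 had no overlap between the groups, where 81.9% of all tested genes had none (38.8% above and 43.1% below the PBS libraries). With library totals 4 and 2 were again called, among 85.7% of all genes. With TMM factors, the same 4 and 2 were also called with a log2 fold change of at least 1 in size. That limit was passed by 19.5% of all tested genes upwards and 23.7% downwards. With library totals Il18 had 0.31 and did not reach it. The log2 fold changes of Il1b, Il1a and Il1rn exceeded those of 99.7%, 99.4% and 98.5% of the tested genes. Il1b and Il1a passed the low-count filter only through the MoS2 libraries. A rise was thus a condition of their being tested, and their calls and ranks are description only.

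**Figure D1:**
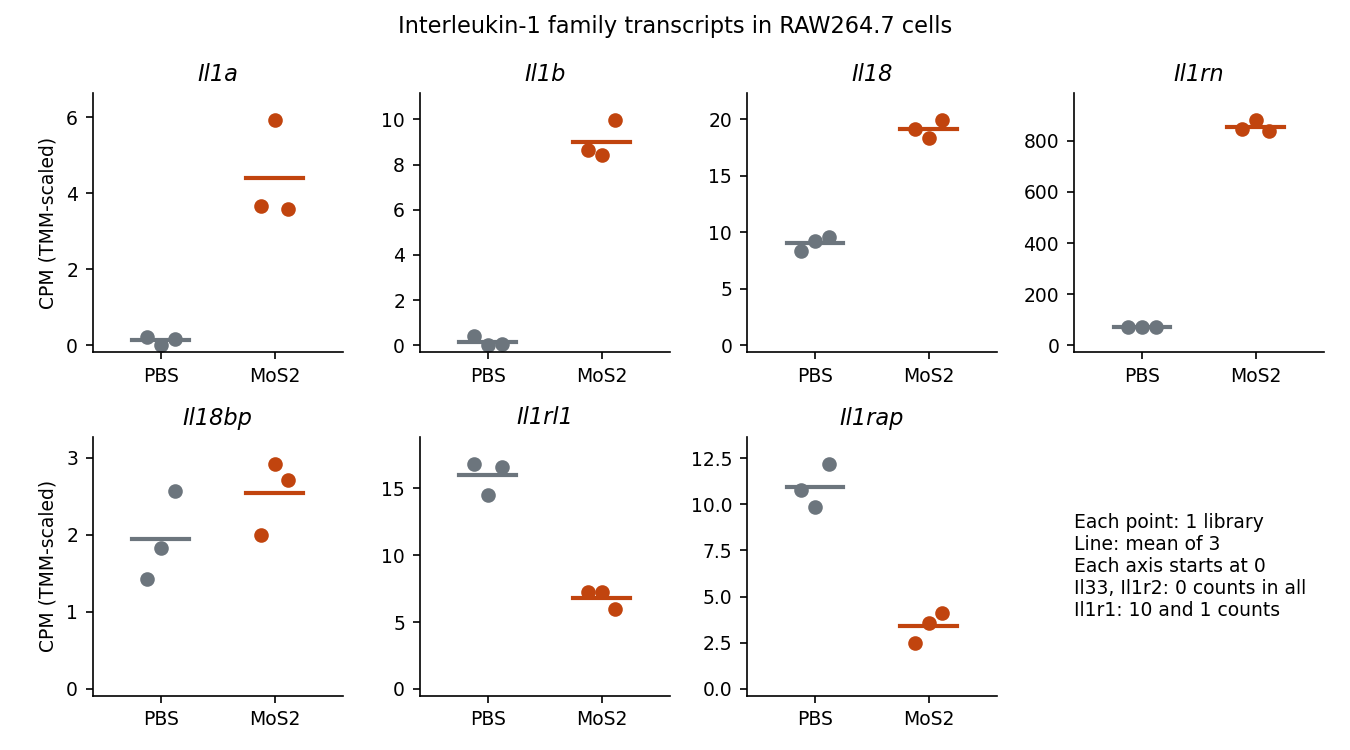
TMM-scaled CPM of the 7 tested IL-1 family genes (vertical axes, linear from 0) in the PBS and MoS2 libraries, with 1 point per library and a line at the mean of 3. The MoS2 points of Il1a, Il1b, Il18 and Il1rn lie above every PBS point, those of Il1rl1 and Il1rap lie below, and those of Il18bp overlap.

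Il1b, the secreted agonist of the pair (ENSMUSG00000027398.13, GRCm38 chromosome 2, 129364570 to 129371139, minus strand), had 10, 0 and 1 counts in PBS replicates 1, 2 and 3. It had 108, 104 and 136 counts in the MoS2 replicates. Each MoS2 library was thus above each PBS library, and PBS replicate 1 held nearly all of the PBS counts. The level went from 0.160 ± 0.238 to 9.0 ± 0.826 CPM (SD, n = 3). The log2 fold change was 5.75 ± 0.46 (SE, edgeR adjusted p = 4.3e-08), and 8.25 without PBS replicate 1. As a ratio of summed counts the level was 56.1 times higher, with a 95% counting interval of 31.0 to 113 that covers counting error only.

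Il1a, the agonist known as an alarmin of damaged cells (ENSMUSG00000027399.1, GRCm38 chromosome 2, 129299610 to 129309972, minus strand), lies 54.6 kb from Il1b. It had 5, 0 and 4 counts with PBS and 46, 73 and 49 counts with MoS2, again with no overlap between the groups. The level went from 0.132 ± 0.116 to 4.39 ± 1.32 CPM, and the log2 fold change was 4.98 ± 0.51 (SE, adjusted p = 6.1e-07 by edgeR's test). The ratio of summed counts was 33.1, with a counting interval of 17 to 73.7. With so few PBS counts the SE of both agonists is too small. Of the exon bases of Il1a, 11.25% overlap the gene model Gm14023 on the opposite strand, which had 6 counts with PBS and 2 with MoS2. The overlap of Il1b with Il1bos is 1.31% of its exon bases, and Il1bos had 7 and 2 counts. The sources used here do not say whether counting used the strand, so reads in these overlaps cannot be told apart.

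The 250 bases before the RefSeq start (GRCm38.p6) are shown for the 3 genes with the largest rises, 5′ to 3′ on each gene's own strand, because these genes rose together. Capitals mark matches, on either strand, to the AP-1 motif (TGANTCA), the C/EBP motif (TTGCNNAA), the PU.1 core (GAGGAA), the TATA box (TATAAA) and the 10-base NF-kB motif. No match in these windows overlaps another. Il1rn has 3 RefSeq starts, and its first and second are shown.
Il1b, chr2:129371140-129371389, minus strand: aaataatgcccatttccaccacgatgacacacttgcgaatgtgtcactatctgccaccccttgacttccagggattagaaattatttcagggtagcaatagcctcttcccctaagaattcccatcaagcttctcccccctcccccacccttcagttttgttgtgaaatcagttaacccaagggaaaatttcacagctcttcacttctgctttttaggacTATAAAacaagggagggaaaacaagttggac
Il1a, chr2:129309973-129310222, minus strand: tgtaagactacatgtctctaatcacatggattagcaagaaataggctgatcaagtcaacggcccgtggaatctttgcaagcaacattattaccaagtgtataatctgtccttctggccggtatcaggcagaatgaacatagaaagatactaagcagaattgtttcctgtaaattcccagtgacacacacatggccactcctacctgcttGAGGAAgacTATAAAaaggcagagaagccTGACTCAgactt
Il1rn first start, chr2:24336610-24336859, plus strand: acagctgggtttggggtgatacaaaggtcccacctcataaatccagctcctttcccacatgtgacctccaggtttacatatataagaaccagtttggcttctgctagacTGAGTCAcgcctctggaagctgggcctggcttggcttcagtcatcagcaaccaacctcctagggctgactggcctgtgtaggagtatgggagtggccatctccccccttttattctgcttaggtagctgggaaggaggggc
Il1rn second start, chr2:24345041-24345290, plus strand: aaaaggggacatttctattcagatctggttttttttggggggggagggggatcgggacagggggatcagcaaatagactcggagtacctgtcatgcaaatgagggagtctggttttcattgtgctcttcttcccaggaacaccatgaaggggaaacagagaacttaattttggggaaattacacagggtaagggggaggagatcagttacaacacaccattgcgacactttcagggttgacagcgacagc

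Il1b and Il1a both had a TATA box close to the start, 26 to 31 and 27 to 32 bases upstream. Il1a also had a PU.1 core 36 to 41 bases and an AP-1 match 6 to 12 bases upstream, and the first Il1rn window had an AP-1 match 135 to 141 bases upstream. The second Il1rn window held none of these letters. Over the 15 RefSeq windows of the 10 genes, AP-1 matched in 2, the TATA box in 5, C/EBP in 4, the PU.1 core in 1 and NF-kB in 1. Among all 32851 windows of the same length, the shares with a match were 6.75%, 12.37%, 9.56%, 23.25% and 7.25%. A match of letters is a description and not a bound site.

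Il1rn encodes the IL-1 receptor antagonist (ENSMUSG00000026981.15, GRCm38 chromosome 2, 24336853 to 24351494, plus strand). Its level was 73.4, 71.7 and 73.9 CPM in the PBS libraries and 844, 879 and 837 CPM in the MoS2 libraries. The groups were far apart and each was tight, with means of 73.0 ± 1.15 and 853 ± 22.0 CPM. The log2 fold change was 3.55 ± 0.06 (edgeR adjusted p = 2.4e-14), 2.78 with library totals and 3.73 once trends on gene length and GC content were removed. Secreted and intracellular forms of the antagonist come from different first exons of this gene, and the counts per gene do not separate them.

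Per gene length, Il1rn exceeded its competing agonists in every library. It stood at 13.2 ± 0.208 RPKM with PBS and 154 ± 3.97 RPKM with MoS2, against 4.72 ± 0.433 RPKM for Il1b and 2.22 ± 0.670 RPKM for Il1a with MoS2. The ratio of Il1rn to the sum of Il1a and Il1b was 23.9, 21.4 and 21.5 in the MoS2 libraries. It was 39.4 and 116 in PBS replicates 1 and 3, and PBS replicate 2 had no agonist count. As a share of the 3 genes together, the agonists made up 2.48%, 0% and 0.851% with PBS and 4.02%, 4.46% and 4.44% with MoS2. The shares did not overlap between the groups (exact two-sided permutation p = 0.1, the smallest that 3 against 3 libraries can give, and 0.15 after Benjamini-Hochberg adjustment over the 3 shares tested). The PBS shares rest on 9 counts of Il1a and 11 of Il1b.

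Il18 is an agonist that drives interferon-γ production in lymphocytes (ENSMUSG00000039217.13, GRCm38 chromosome 9, 50554827 to 50581840). Its level was 8.32, 9.21 and 9.57 CPM with PBS and 19.2, 18.3 and 19.9 CPM with MoS2. All MoS2 libraries were above all PBS libraries. The log2 fold change of 1.08 ± 0.11 (edgeR adjusted p = 7.7e-07) depended on the scaling. It was 0.31 with library totals (adjusted p = 0.020) and 0.32 with the length and GC trend removed (adjusted p = 0.018). Unscaled, the gene had 617 counts with PBS and 738 with MoS2.

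Il18bp, the secreted trap of IL-18, had 1.43, 1.82 and 2.56 CPM with PBS and 2.0, 2.92 and 2.71 CPM with MoS2. The groups overlapped. The log2 fold change of 0.39 had a 95% interval of -0.24 to 1.02 (edgeR adjusted p = 0.23) and was -0.38 with library totals, so no direction was established. In addition, 80 of its exon bases overlap Numa1 on the opposite strand, a gene at 200.5 CPM with PBS and 109 CPM with MoS2. Relative to the sum of Il18 and Il18bp per length, Il18bp made up 5.53%, 6.32% and 8.36% with PBS and 3.43%, 5.15% and 4.43% with MoS2 (exact two-sided permutation p = 0.1, adjusted 0.15). Its MoS2 shares were thus all below its PBS shares. Length and GC trends do not cancel between genes, and the shares were not recomputed with these trends removed.

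Il33, an alarmin mainly of epithelial and stromal cells, had 0 counts in all 6 libraries. A count of 0 allows up to 3 counts, or 0.13 to 0.243 CPM by library. Epithelial and fibroblast markers were also near 0, at a summed level of at most 0.0799 and 0.731 CPM in any library, with Cdh1, Krt18, Krt14 and Col3a1 at 0 counts throughout.

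**Figure D2:**
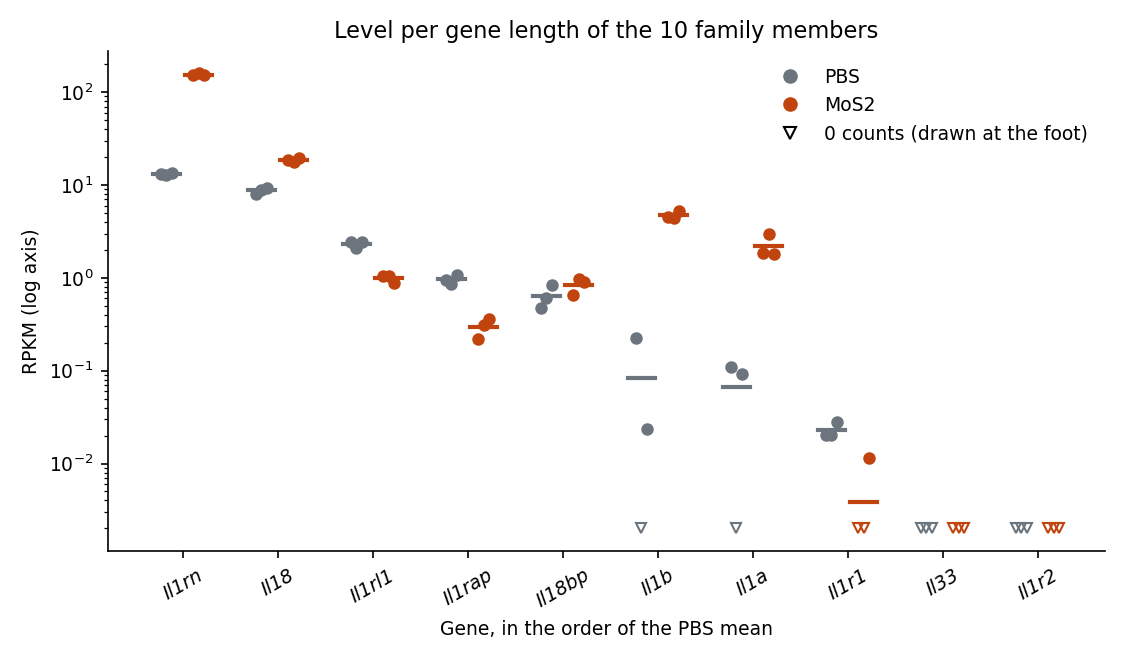
RPKM (log axis) of the 10 IL-1 family genes in PBS and MoS2 libraries, with 1 point per library, a line at the group mean and open triangles at the foot for 0 counts. Il1rn and Il18 lead in both groups, and Il1b and Il1a move from sixth and seventh place with PBS to the third and the fourth with MoS2.

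The order of levels per length changed below the first places. With PBS, Il1rn was followed by Il18 at 8.76 ± 0.622 RPKM, Il1rl1 at 2.32 ± 0.186, Il1rap at 0.962 ± 0.103 and Il18bp at 0.641 ± 0.190 RPKM, and every library of each gene was above every library of the next. Il1b (0.0836 ± 0.13), Il1a (0.0670 ± 0.0587) and Il1r1 (0.0231 ± 0.00450 RPKM) followed, and neighbours among these overlapped. With MoS2, Il18 at 18.6 ± 0.766 RPKM stayed second and Il1b and Il1a came next. Il1rl1 at 0.990 ± 0.104 and Il18bp at 0.839 ± 0.159 RPKM overlapped, and Il1rap at 0.297 ± 0.0727 RPKM lay below both. TPM in place of RPKM put no member in another position.

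Il1rl1 encodes ST2, the IL-33 receptor (ENSMUSG00000026069.15, GRCm38 chromosome 1, 40429570 to 40465415). Its level was 16.8, 14.5 and 16.6 CPM with PBS and 7.27, 7.21 and 6.0 CPM with MoS2, and the groups did not overlap. The log2 fold change was -1.23 ± 0.13 (edgeR adjusted p = 1.1e-06), -2.0 with library totals and -1.03 with the length and GC trend removed. The counts per gene do not separate membrane-bound from soluble ST2. Mast cells are known for high Il1rl1, and of 6 mast cell markers Mcpt4, Tpsb2, Fcer1a and Ms4a2 had 0 counts in all libraries. The other two were Kit, with 2 counts in MoS2 replicate 3 alone, and Cpa3, which went from 0.494 to 0.0270 CPM. The summed level of the list was 0.225 to 0.651 CPM with PBS and 0 to 0.146 CPM with MoS2. Markers of T cells and innate lymphoid cells were not near 0, at a summed level of 23.7 to 29.0 CPM with PBS and 23.2 to 25.1 CPM with MoS2. Among them, Il7r went from 17.7 to 10.5 CPM, Lck from 5.79 to 10.4 CPM and Gata3 from 2.73 to 2.85 CPM. Cd3d, Cd3e and Cd3g had 0 counts with PBS. With MoS2, Cd3g had 8 counts and Cd3e 1, all in replicate 3, and Cd3d had 0. A link of Il1rl1 to these markers was not tested.

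Il1rap, the signalling partner of both Il1r1 and Il1rl1 (ENSMUSG00000022514.14, GRCm38 chromosome 16, 26581704 to 26730117), had 10.8, 9.86 and 12.2 CPM with PBS. It had 2.48, 3.57 and 4.10 CPM with MoS2, each below every PBS library. The log2 fold change was -1.69 ± 0.19 (edgeR adjusted p = 1.4e-06), -2.46 with library totals and -1.43 with the length and GC trend removed. As a share of Il1rap and Il1rl1 together per length, Il1rap made up 27.9%, 29.2% and 30.8% with PBS and 17.1%, 23.1% and 29.3% with MoS2. These shares overlapped between the groups (exact two-sided permutation p = 0.3, adjusted 0.3). Of the exon bases of Il1rap 4.86% overlap the gene model Gm20319 on the opposite strand, which had 0 counts in all libraries.

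Il1r1, the receptor through which IL-1α and IL-1β signal (ENSMUSG00000026072.12, GRCm38 chromosome 1, 40225080 to 40317257), was barely detected. It had 3, 3 and 4 counts with PBS and 0, 0 and 1 with MoS2, without overlap but too few to be tested. The ratio of MoS2 to PBS was 0.177, with a 95% counting interval of 0.00409 to 1.25, so a difference was not detectable at this depth. The decoy Il1r2 had 0 counts in all 6 libraries, under the same limit as Il33.

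**Figure D3:**
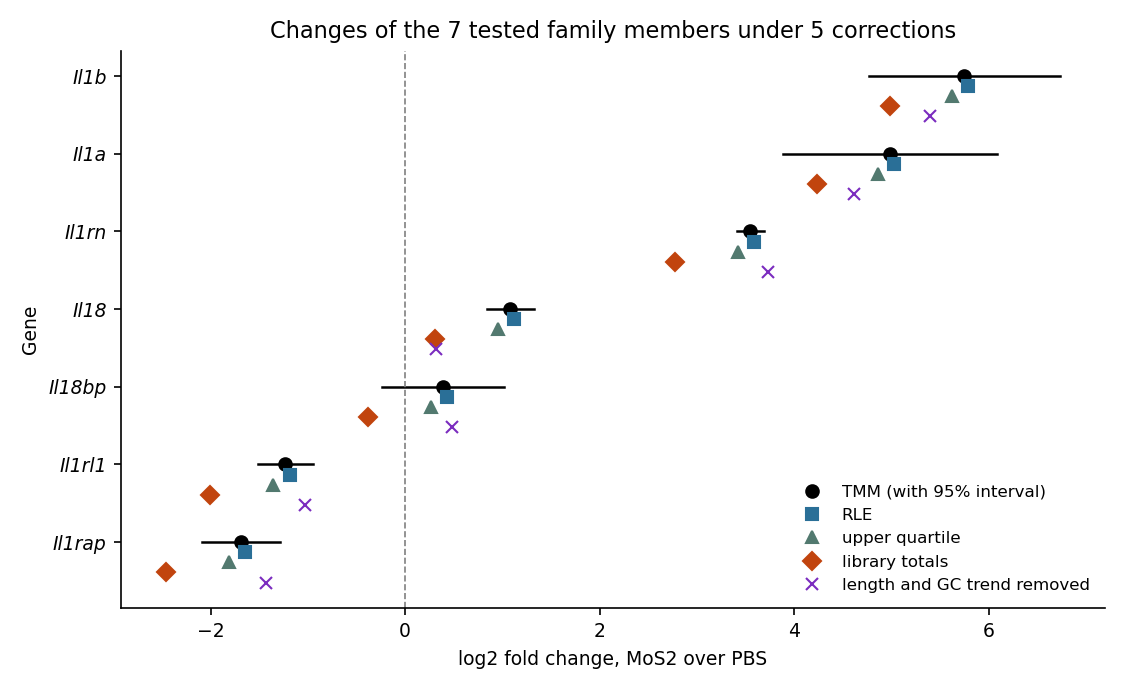
Log2 fold change of MoS2 over PBS (horizontal axis) for the 7 tested members, with TMM factors and their 95% interval (circle and line), RLE and upper-quartile factors, library totals, and the length and GC trend removed. The rises of Il1b, Il1a and Il1rn and the falls of Il1rl1 and Il1rap keep their side of 0 under all 5, Il18 moves closer to 0 under 2 of them, and Il18bp changes side with library totals.

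The 6 receptor genes of the cluster on chromosome 1 (Il1r2, Il1r1, Il1rl2, Il1rl1, Il18r1 and Il18rap, 40074079 to 40551705, 478 kb) were expressed unevenly, and 2 could be tested. Il18rap, the accessory chain of the IL-18 receptor, fell as Il1rl1 did, from 41.0 ± 1.29 to 16.5 ± 1.45 CPM (log2 fold change -1.31 ± 0.09, edgeR adjusted p = 1.1e-08). The ligand-binding chain Il18r1 had 3 counts with PBS and 7 with MoS2, and the IL-36 receptor Il1rl2 had 0 and 1. Sigirr, an inhibitory receptor of the family that lies on chromosome 7, fell from 18.8 ± 1.48 to 5.16 ± 1.15 CPM (log2 fold change -1.87 ± 0.15, edgeR adjusted p = 5.6e-08).

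Among the remaining ligands, 2 IL-36 agonist genes had counts in every MoS2 library and none in the PBS libraries. Il1f9, which encodes IL-36γ (ENSMUSG00000044103.4, GRCm38 chromosome 2, 24186476 to 24193568), had 0 counts in each PBS library and 77, 74 and 84 counts with MoS2. Against a floor of 3 counts over the PBS group it was at least 139-fold higher (edgeR adjusted p = 9.3e-09). Il1f6, which encodes IL-36α (ENSMUSG00000026984.4, GRCm38 chromosome 2, 24215418 to 24225702), had 0 counts with PBS and 26, 20 and 30 with MoS2, at least 44.9-fold higher (edgeR adjusted p = 1.3e-06). These bounds hold with TMM factors and would be lower with library totals. Both genes passed the low-count filter only through the MoS2 libraries, so a rise was a condition of their being tested. Il1f9 and Il1f6 lie with Il1rn in a cluster of 6 ligand genes (24153161 to 24351494, 198 kb), whose other members Il1f8, Il1f5 and Il1f10 had 0 counts in all libraries. Per length, Il1f9 at 3.70 ± 0.0522 RPKM with MoS2 was below Il1b in every library. Of the 11 family genes outside the 10 members, 4 were tested, 2 higher and 2 lower, beside 38.3% and 42.4% of all genes.

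Genes that carry the IL-1 signal from the receptor moved in both directions. Of 28 listed, 26 were tested, 9 higher and 11 lower, beside 38.3% and 42.4% of all genes. Their median log2 fold change was -0.06 against -0.08 over all genes tested. With library totals 1 was higher and 21 lower, beside 18.0% and 67.7% of all genes. The adaptor Myd88 fell from 57.9 ± 1.40 to 27.6 ± 1.84 CPM (log2 fold change -1.07 ± 0.08, edgeR adjusted p = 1.9e-08). The kinase p38α, Mapk14, had the smallest adjusted p of the list and a log2 fold change of -1.56, and the NF-kB subunit Rela had -1.0. Tollip, which binds the receptor complex and restrains it, rose by 1.18, or 0.41 with library totals. Of the kinases that assemble with Myd88, Irak1 and Irak4 had -0.93 and -0.84, and Irak2 had 0.86, or 0.09 with library totals, where it was not called (adjusted p = 0.25).

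Genes of maturation, release and shedding had 11 members higher and 7 lower of 23 tested, beside 38.3% and 42.4% of all genes. Their median was 0.09. With library totals 6 were higher and 14 lower, beside 18.0% and 67.7% of all genes. The sheddases Adam10 and Adam17, which cut receptor ectodomains from the cell surface, fell to 48.8 CPM from 199.7 and to 88.8 CPM from 338 with PBS. Nlrp3, which senses danger signals and assembles an inflammasome, stood at 79.8 ± 2.01 CPM with PBS and 5.99 ± 1.6 CPM with MoS2 (log2 fold change -3.74 ± 0.13, edgeR adjusted p = 1.4e-11). The ATP-gated channel P2rx7, a trigger of IL-1β release, had -2.52. These 4 genes had the smallest adjusted p of the list, and all were lower. Of the 11 called higher, Ninj1 and Aim2 had 1.21 and 0.76. With library totals they had 0.44 and -0.02, and Aim2 was not called (edgeR adjusted p = 0.8). Casp1, which cleaves the IL-1β and IL-18 precursors, went from 38.5 ± 3.23 to 57.8 ± 6.39 CPM, a log2 fold change of 0.59 that was -0.19 and not called with library totals (adjusted p = 0.063). The pore-forming Gsdmd had 0.09 (edgeR adjusted p = 0.25), or -0.68 with library totals (adjusted p = 6e-07). RAW264.7 cells are known to lack the inflammasome adaptor ASC, encoded by Pycard, and Pycard had 9 counts with PBS and 2 with MoS2 over all libraries of each group.

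Transcription factors and mRNA decay factors known to act on Il1b had 9 members higher and 6 lower of 17 tested, with a median of 0.41. With library totals 6 were higher and 9 lower. The shares of all genes called higher and lower were 38.3% and 42.4%, or 18.0% and 67.7% with library totals. Zfp36 (tristetraprolin), which binds AU-rich elements of cytokine mRNA and promotes its decay, rose from 23.0 to 246 CPM (log2 fold change 3.41 ± 0.07, edgeR adjusted p = 1e-13). Its relative Zfp36l1 had -1.71. The AP-1 subunits Jun and Junb rose by 1.62 and 1.45. Of the myeloid factors, Cebpb had 0.90 (with library totals 0.12, adjusted p = 0.29, not called), and Spi1, which encodes PU.1, had -0.42.

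Genes known to be induced by IL-1 signalling had 15 members higher and 1 lower of 17 tested, beside 38.3% and 42.4% of all genes. Their median was 4.49. With library totals 12 were higher and 3 lower, beside 18.0% and 67.7% of all genes. Several genes of the induced list were already known as leading rises in these libraries when it was written, so their direction is no independent evidence. Csf3, Cxcl2, Ptgs2 and Lcn2 had the smallest adjusted p, with log2 fold changes of 11.23, 8.29, 7.29 and 5.57. Il6, among those called higher, had 1, 0 and 0 counts in the PBS libraries against 12, 16 and 26 for MoS2 (log2 fold change 6.02 ± 0.75, edgeR adjusted p = 5e-06). The MoS2 to PBS ratio of its summed counts was 95.8, and the counting interval ran from 16.5 to 3852. Il6, Csf3, Ccl2, Ccl7 and Csf2 passed the low-count filter only through the MoS2 libraries, so a rise was a condition of their being tested. Lif, with 3, 12 and 12 counts in the PBS libraries, also needed MoS2 libraries to pass. The number called higher and the median, which is the value of Lif, are thus partly fixed by the filter. The adhesion molecule Icam1 was the 1 member called lower, with -0.91, and Cxcl1 had 0 counts in all libraries.

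**Figure D4:**
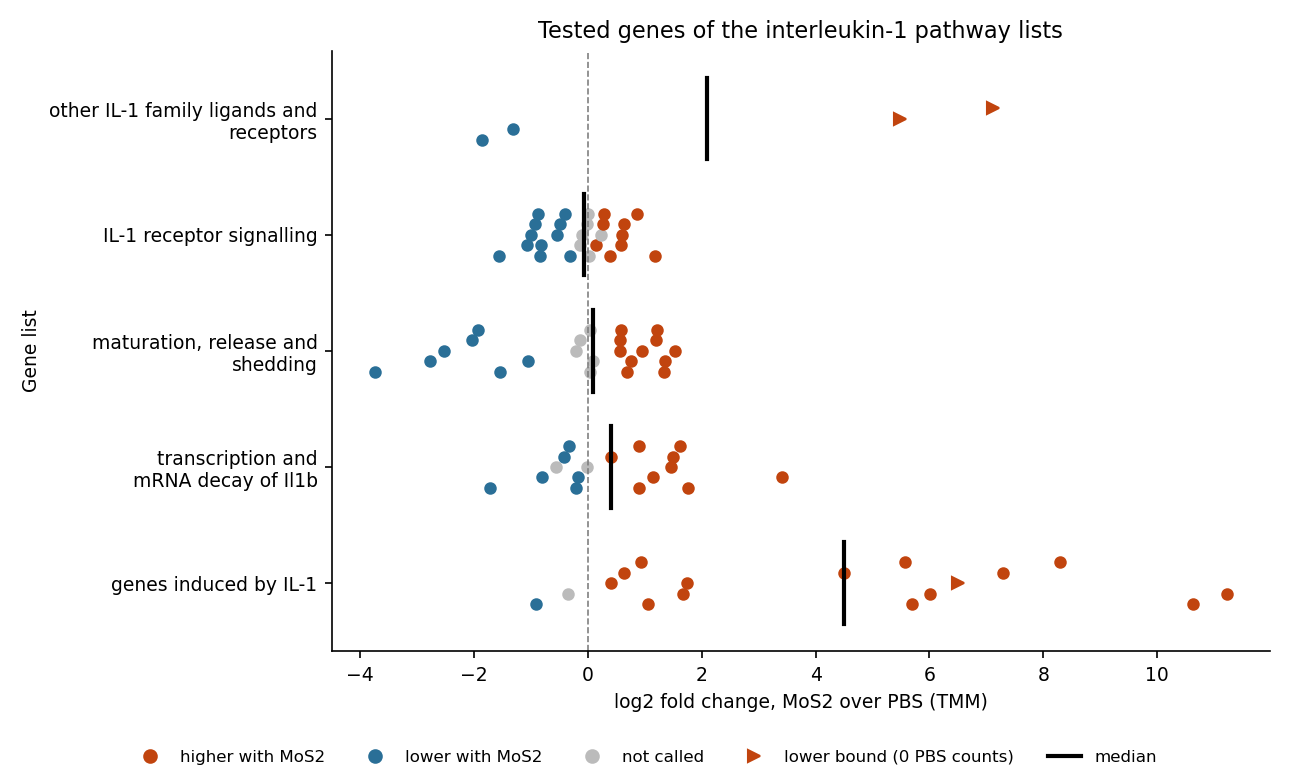
Log2 fold change of MoS2 over PBS (horizontal axis, TMM) for each tested gene of the 5 pathway lists, coloured by call, with a bar at the list median and triangles at the lower bound for the 3 genes with 0 PBS counts. The signalling list is centred near 0 (median -0.06), while most genes induced by IL-1 lie to the right (median 4.49). Several of the induced genes passed the low-count filter only through the MoS2 libraries.

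The genes whose profile over the 6 libraries was most like that of Il1rn, by Euclidean distance between centred log2 CPM values among 9199 named protein-coding genes, were Slc15a3 (distance 0.188), Zfp36 (0.197) and Wfdc17 (0.212). For Il1rl1, the most abundant tested receptor per length among the 10 members, they were Cdk20 (0.119), Il10rb (0.138) and Glrp1 (0.141). The log2 fold changes were 3.57, 3.41 and 3.42 for the first trio beside 3.55 for Il1rn, and -1.32, -1.17 and -1.22 for the second beside -1.23 for Il1rl1. Choosing genes by this distance also chooses similar fold changes, so their closeness is no further evidence of likeness.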

How the data were processed

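RNA of 6 RAW264.7 libraries was sequenced as paired-end reads from NEBNext Ultra libraries on an Illumina NovaSeq, per the labels' protocols. The deposited table holds raw read counts per gene for 55401 genes, together with gene lengths. The submitters' processing notes name fastp 0.20.0, HISAT2 2.1.0 and featureCounts 1.6.1. They also name GRCh38, a human build, but the identifiers are mouse, and GENCODE M21 (GRCm38) holds 54349 of them in the identical version, the 10 members also at identical coordinates. The sources used here do not give strand or multi-mapping settings. Columns were matched to samples by letter (M for MoS2, c for control) and number.

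edgeR 4.0.16 (R 4.3.3, limma 3.58.1) fitted quasi-likelihood models to all 6 libraries with the group as the only term, TMM factors and the default low-count filter (about 10 counts in 3 libraries), which kept 12972 genes. A call needs an adjusted p under 0.05 (Benjamini-Hochberg, all tested genes). The SE is the size of the fitted change over the square root of F. The fit was also run on simulated counts in which few genes changed, balanced in direction and none of them near 0. That setting is unlike these data, so the run does not bear on TMM or on low counts here. RPKM used the deposited gene lengths. Replicates correlated at r of 0.988 or more across genes, and no pair agreed within sampling noise. Motifs were searched in promoter windows from RefSeq (GRCm38.p6).

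The members and the 5 gene lists were chosen with earlier results of these data known. All 104 list entries matched a row, 4 of them (Il1f5, Il1f6, Il1f8 and Il1f9) under an older symbol. Named were all members, up to 4 genes per list by smallest adjusted p, list genes needed to place a member in its pathway, and the 3 genes most like the leading ligand and receptor (mean of at least 5 CPM). Il6, Icam1, Cxcl1, Ninj1, Aim2, Ccl2, Ccl7, Csf2 and Lif were named after their values were seen. Alternatives were RLE and upper-quartile factors, library totals, no filter, a filter of 1 CPM in 3 libraries, limma-voom, DESeq2 1.42.0, a replicate block, an adjusted p under 0.01 and leaving out each library. Removing length and GC trends per library (both known for 99.9% of tested genes) was chosen after seeing the data.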

Additional observations from a re-analysis of the deposited data

How the results depend on the processing

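The 4 members called higher and the 2 called lower were the same in number in every alternative run. Of 112 values of the 7 tested members under alternatives, 111 kept their direction and call, and Il18bp went to -0.38 with library totals. Without 1 library, Il1b ranged from 5.16 to 8.25 and Il1a from 4.41 to 5.51 on the log2 scale. The agonist share of Il1a, Il1b and Il1rn differed between groups by 2.64 to 3.88 percentage points without 1 library, against 3.20 with all. No share was recomputed with the length and GC trend removed. With library totals, 2334 genes were called higher and 8786 lower, the signalling list had 1 higher and 21 lower, maturation 6 and 14, and the induced list 3 lower. Upper-quartile factors and no low-count filter gave the induced list 2 lower each, and leaving out 1 library 1 to 2. The length and GC trend removed left 3 lower in the transcription and decay list. With library totals Casp1 had -0.19 and Gsdmd -0.68, and with upper-quartile factors the log2 fold change of Gsdmd was -0.041. The cause of these changes was not tested, except that library totals lower every gene by about the same amount. Replicate numbers did not pair the libraries (correlations of deviations between same-numbered libraries of -0.138 to -0.0107). With the replicate block 4848 genes were called higher and 5355 lower, against 4964 and 5502 without it, and the counts of members called were 4 and 2. The SE of Il1a and Il1b is limited by 9 and 11 PBS counts.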
